A study of Mus musculus with 5 samples.

Results

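The cell-cycle phase genes are 47 genes of DNA replication and mitosis, of 24299 genes with at least 1 unique molecular identifier (UMI, 1 captured mRNA molecule) in the study. No measured value enters the rule that lists them. Of them, 22 belong to S phase and 25 to G2 and mitosis (G2/M). The cells come from mammary tumours of PyMT mice, in which the polyoma virus middle T antigen is expressed as a transgene. Tumours were digested, enriched for viable cells and profiled by single-cell RNA sequencing in 5 libraries. There were 2 fresh libraries made with the 10x Genomics 3' kit, version 2 (fresh 10x 1 and 2). The third 10x library (stored 10x) is labelled 24 h, and per the labels' protocol such digests stood overnight at 4 °C and lost viability before loading. The other libraries were made with BD Rhapsody. Both are titled fresh, but the deposited files of the second are named for 24 h, so BD 1 and BD 2 were kept apart and BD 2 entered only comparisons between cell types. The labels used here give no strain, age, transgene promoter or pooling, and do not say whether libraries came from separate animals. P-values therefore measure the spread between libraries, which may be technical.

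Cells commit to division when E2F factors are released from the retinoblastoma protein, and E2F targets load the replicative helicase and make nucleotides for S phase. Genes of G2 and mitosis follow under B-Myb and FoxM1, which act with the MuvB complex at CHR promoter elements. CCAAT, another promoter element, was searched for as well. The products of the first set copy DNA, and those of the second condense chromosomes, build the spindle and destroy cyclins at mitotic exit. In PyMT tumours the transformed epithelium divides, and so can the macrophages, lymphocytes, fibroblasts and vessel cells around it.

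Since the 2 sets are known to differ in promoter elements, the 100 bases before the start of 6 genes are shown. They come from the RefSeq promoter table of build GRCm38.p6. The 6 were picked because this window holds the letters marked, so they are not typical of their sets. Of the G2/M genes that qualified, the 4 with the highest epithelial level are shown. The window held CHR letters with CCAAT in 5 of 20 G2/M promoters, against 1.17% of all promoters. It held E2F letters in 2 of 19 S promoters, against 0.866% of all. The first 4 are G2/M genes. Capitals mark CHR letters (TTTGAA or TTCGAA) and CCAAT, on either strand.
Ube2c, chr2:164769829-164769928, plus strand: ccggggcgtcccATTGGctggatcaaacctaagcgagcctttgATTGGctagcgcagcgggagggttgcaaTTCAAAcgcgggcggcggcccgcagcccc
Cdk1, chr10:69352913-69353012, minus strand: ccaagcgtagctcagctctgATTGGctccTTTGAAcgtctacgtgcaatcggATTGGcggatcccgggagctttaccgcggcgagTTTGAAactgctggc
Top2a, chr11:99024190-99024289, minus strand: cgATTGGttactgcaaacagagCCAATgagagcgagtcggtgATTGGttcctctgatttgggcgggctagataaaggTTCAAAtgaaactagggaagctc
Cdc20, chr4:118437344-118437443, minus strand: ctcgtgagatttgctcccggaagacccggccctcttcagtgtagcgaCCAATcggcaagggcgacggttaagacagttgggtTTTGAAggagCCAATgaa
In the other two, from S genes, capitals mark an E2F match (TTTGGCGC, TTTCGCGC, TTTCCCGC or TTTGGCGG, either strand).
Mcm6, chr1:128359706-128359805, minus strand: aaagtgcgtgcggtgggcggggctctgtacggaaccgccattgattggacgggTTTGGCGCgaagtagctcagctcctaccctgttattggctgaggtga
Hells, chr19:38930890-38930989, plus strand: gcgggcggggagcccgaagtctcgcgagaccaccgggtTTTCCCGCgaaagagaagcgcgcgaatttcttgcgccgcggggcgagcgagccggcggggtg

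The table held 39 of the 47 genes, 19 of the S set and 20 of the G2/M set, and motifs were searched in the 250 bases before the start. CCAAT was present in 18 of 20 G2/M promoters (90%) and in 10 of 19 S promoters (52.6%), against 34.5% of all 27025 promoters of that length. CHR letters were present in 8 of 20 G2/M promoters (40%), 2 of 19 S promoters (10.5%) and 17.4% of all promoters. All 8 also held CCAAT: Bub1b, Ccnb2, Cdc20, Cdk1, Kif11, Mki67, Top2a and Ube2c. In the S set Mcm2 and Mcm7 held both, and 6.21% of all promoters did. E2F letters were in 5 of 19 S promoters (26.3%; Cdc6, Hells, Mcm5, Mcm6 and Mcm7), in 1 of 20 G2/M promoters (5%; Cdk1) and in 2.00% of all promoters. These matches describe letters in a window and are not binding data.

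The 5 libraries (in the order used throughout: fresh 10x 1, fresh 10x 2, stored 10x, BD 1 and BD 2) held 15958 cells in all, and each held 29166129 to 59957945 UMIs, with median UMIs per cell of 8926 to 12474. Median mitochondrial shares were 6.14% to 7.17% in the 10x libraries, 15.2% in BD 1 and 19.8% in BD 2. Cells were clustered without the cell-cycle genes and named from marker lists. This gave 1409 to 3304 epithelial-like, 151 to 385 immune and 248 to 441 stromal cells a library, and left 68 to 249 cells outside these compartments. All 8 epithelial markers were found in at least 25% of epithelial-like cells of each library. The same markers had named these cells, so this does not test whether they are tumour cells. Libraries shared at most 24 cell barcodes, between BD 1 and BD 2.

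Within the epithelium the 47 genes were first described by phase. Each cell was thinned to 2000 UMIs and called G2/M with at least 2 UMIs of the G2/M genes, with or without S transcripts. S-alone cells had at least 2 UMIs of the S genes and fewer of the other set. The gene being described was left out of the call. With no gene left out, 1151 of the 1581 epithelial-like cells called G2/M also had at least 2 UMIs of the S genes. Each of the 25 G2/M genes was higher in G2/M cells than in S-alone cells in 5 of 5 libraries, with a median log2 ratio of 3.34. The 22 S genes had a median of 0.36 and 9 of them were higher in all 5 libraries. The sets follow the calls in part because genes of 1 set are counted together, so these ratios are descriptions.

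The steepest profiles were those of Nusap1, Plk1 and Cenpe. Nusap1, which bundles spindle microtubules, had a log2 ratio of 4.89, Plk1, the polo kinase of mitotic entry, 4.80, and Cenpe, a kinetochore motor, 4.04. Plk1 stood at 74.3 UMIs per 1000000 UMIs (CPM) in G2/M cells, 2.96 in S-alone cells and 0.785 in cells with neither. Ube2c, the ubiquitin-conjugating enzyme of the anaphase-promoting complex, stood at 591, 39.3 and 10.8 (ratio 3.88), and its partner Cdc20 had a ratio of 3.49. Ccnb1 (cyclin B1) had 3.74 and its kinase Cdk1 2.42, with Cdk1 at 297, 55.6 and 6.15 CPM. The genes closest to S phase within the G2/M set were Pbk, a mitotic kinase (1.79), Mki67, the Ki-67 antigen (2.27), Top2a, which untangles DNA (2.32), and Birc5, the survivin subunit of the chromosomal passenger complex (2.32). Levels of these in S-alone cells were well above those in cells with neither set: Top2a stood at 253, 62.2 and 5.27 CPM.

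The S genes differed among themselves by this measure. The 6 Mcm genes, subunits of the helicase, ran from -0.02 (Mcm4), 0.04 (Mcm3) and 0.08 (Mcm6) to 0.21 (Mcm7), 0.35 (Mcm2) and 0.36 (Mcm5). Hells, a chromatin remodeller, had 0.00, E2f1 -0.01 and the helicase loaders Cdt1 and Cdc6 0.07 and -0.32. Mcm3 stood at 50.4 CPM in G2/M cells, 63.4 in S-alone cells and 4.51 in the rest. Nucleotide genes were higher in G2/M cells, most of which held S transcripts too, in 5 of 5 libraries. Their ratios were 1.21 for Tk1 (thymidine kinase), 1.06 and 1.05 for Rrm1 and Rrm2 (ribonucleotide reductase), 1.00 for Tyms (thymidylate synthase) and 0.67 for Dut (dUTPase). Pclaf, a PCNA partner, had the largest ratio of the S set (1.79), with 386, 119 and 9.89 CPM. Gmnn, geminin, the inhibitor of helicase reloading, had 0.84, and Pcna, the replication clamp, 0.27.

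**Figure D1:**
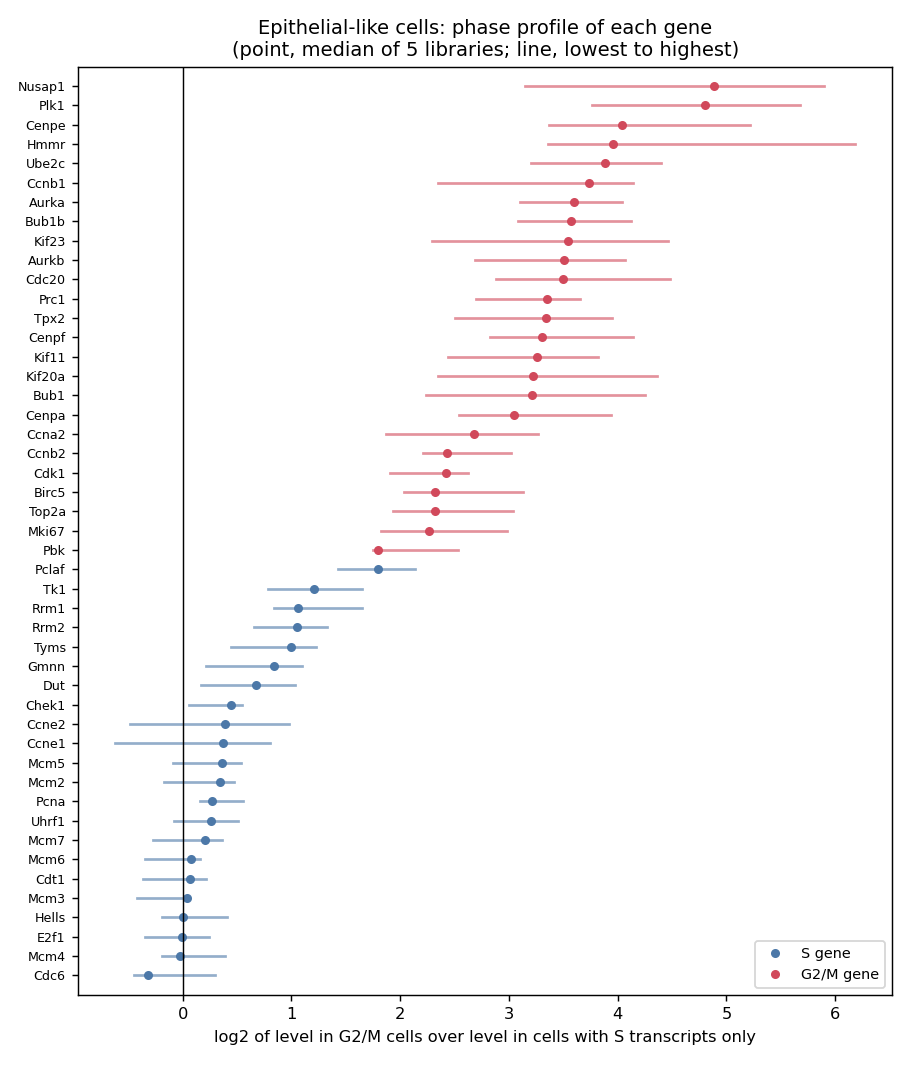
Log2 ratio of each gene's level in G2/M cells to its level in cells with S transcripts alone, among epithelial-like cells (x axis), for the 47 genes (y axis). Points are the median of 5 libraries and lines run from the lowest to the highest library; all 25 G2/M genes lie right of 0 and S genes run from -0.32 (Cdc6) to 1.79 (Pclaf).

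Called epithelial-like cells also held more RNA. In fresh 10x 1 the median UMI count before thinning was 26014 in G2/M cells of the epithelium, 17592 in S-alone cells and 11010 in cells with neither. The other libraries had the same order, with 29129, 15977 and 11688 in fresh 10x 2, 24186, 16966 and 10477 in stored 10x, 24269, 14554 and 12036 in BD 1, and 19828, 12258 and 8599 in BD 2. Doublets were kept, since the caller used marked 42 of 15958 cells (0.263%), too few to have worked, and their part in these depths was not tested.

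Summed levels were next compared by cell class, as UMIs of a set per 10000 UMIs in each library. In the epithelium the S sums of the 5 libraries were 6.93, 7.31, 6.48, 7.13 and 7.90 and the G2/M sums 9.25, 10.5, 8.75, 10.7 and 11.4. The log2 ratio of the G2/M to the S sum lay between 0.42 and 0.59, so the 2 sums kept a similar proportion in all 5 libraries. Such sums weight cells by their UMIs: with every cell weighted equally the medians over libraries were 4.71 (S) and 5.95 (G2/M) in place of 7.13 and 10.5, and the log2 ratio lay between 0.22 and 0.48.

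Immune cells had S sums of 7.33, 9.24, 6.09, 6.55 and 6.73, within or near the epithelial range. Their G2/M sums were 6.73, 10.9, 9.17, 12.6 and 6.94, and the log2 ratio ran from -0.12 in fresh 10x 1 to 0.95 in BD 1. T/NK-like cells (24 to 81 cells a library) had S sums of 7.58 to 13.9 and G2/M sums of 5.66 to 17.6. Macrophage-like cells had S sums of 4.15 to 6.51 and G2/M sums of 4.58 to 11.9, highest in BD 1. In these classes few cells carried the sums: the 3 richest cells held 43.8% to 74.6% of the 47 genes' UMIs in T/NK-like cells, most in fresh 10x 2, and 36.2% to 70.1% in macrophage-like cells. The immune compartment also holds 2 clusters left without a class name, since under 3 markers of their best-scoring class, dendritic, were detected. Lyz2 and Cd68 were among the leading genes of 1, and Trac, Trbc2 and Cd3e among those of the other. The named classes therefore do not hold all cells with such markers. Clustering with the cell-cycle genes gave 94, 40, 117, 100 and 138 T/NK-like cells. The 2 clusters had S sums of 4.36 to 14.2 and G2/M sums of 2.11 to 23.0, both highest on 4 cells of fresh 10x 1. Neutrophil-like cells, the terminally differentiated class, had S sums of 0 to 2.17 and G2/M sums of 0 to 1.56 on 2 to 12 cells a library.

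Stromal cells were lowest in S genes, at 5.28 and 5.08 for the fresh 10x pair, 3.64 after storage, and 3.15 and 3.32 for BD 1 and BD 2, each below the epithelial and the immune value of its own library. Their G2/M sums were 6.69, 5.25, 5.86, 3.84 and 1.89, again below both in 5 of 5 libraries, though by little from the immune value in fresh 10x 1 (6.73). The stromal log2 ratio ran from -0.81 in BD 2 to 0.69 in stored 10x. Fibroblast-like cells ranged over 3.07 to 4.14 (S) and 1.85 to 5.01 (G2/M), and endothelial-like cells (13 to 177 cells) over 4.24 to 8.50 and 4.25 to 11.8. Mural-like cells (7 to 67 cells) had the widest ranges of the stromal classes, 2.14 to 9.86 and 1.07 to 16.5, and in both fresh 10x libraries the 47 genes together stood above their epithelial level there (139% and 102% of it). The 3 richest cells held 25.4% to 40.0% of the 47 genes' UMIs in fibroblast-like, 27.6% to 86.7% in endothelial-like and 53.3% to 79.0% in mural-like cells.

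**Figure D2:**
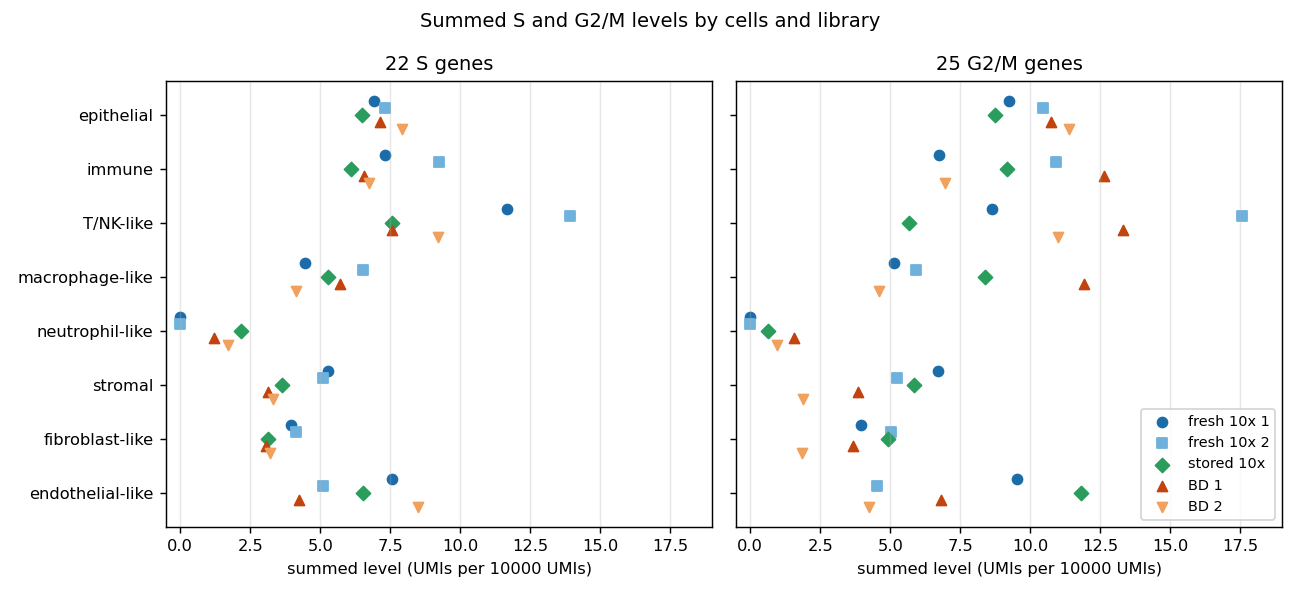
Summed level of the 22 S genes (left) and the 25 G2/M genes (right), in UMIs per 10000 UMIs (x axes), by cell class (y axis); each marker is 1 library. Stromal values lie below the epithelial values of the same library in both panels, and neutrophil-like values lie at or near 0.

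Free RNA, which gives UMIs in cells that do not express a gene, was gauged with the epithelial markers. The marker level is the median over cells, while that of the 47 genes is from UMIs summed over cells, to which a few rich cells add much. The 2 percentages are therefore unlike measures, and the gap between them does not give the size of free RNA. Those markers stood in immune cells at 2.92% to 8.57% of their epithelial level, while the 47 genes stood at 70.9% to 113%. In stromal cells the markers were at 1.66% to 5.52% and the 47 genes at 27.0% to 74.0% of the epithelial level. In neutrophil-like cells the 47 genes were at 0% to 18.3% and the markers at 3.50% to 10.8%.

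The share of cells with S or G2/M transcripts was counted after thinning to 2000 UMIs (at least 2 UMIs of a set). In epithelial-like cells it was 19.7% in fresh 10x 1 (exact binomial 95% interval 17.6% to 21.9%), 20.6% in fresh 10x 2 (18.5% to 22.8%), 19.5% after storage (18.02% to 21.0%), 19.2% in BD 1 (17.8% to 20.7%) and 21.4% in BD 2 (20.0% to 22.8%). These intervals overlap one another, and cover counting error only. Cells with both sets made up 9.28%, 10.5%, 9.11%, 9.45% and 10.8%, and cells with G2/M transcripts alone 3.14% to 3.81%. The thinning left out 46, 40, 264, 0 and 1 epithelial-like cells of lower depth.

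Immune cells had shares of 22.6%, 25.8%, 21.1%, 26.1% and 22.6%, on 115, 124, 218, 349 and 385 cells, with 36, 27, 96, 0 and 0 left out. Within them T/NK-like cells had 22.9% to 41.8% and macrophage-like cells 15.2% to 23.9%. Of neutrophil-like cells deep enough to count, 0 of 1, 0 of 2, 2 of 12 and 0 of 10 were called in fresh 10x 1, stored 10x, BD 1 and BD 2, and none was deep enough in fresh 10x 2. Stromal shares were 17.1% in fresh 10x 1 (13.6% to 21.1%), 20.3% in fresh 10x 2 (15.6% to 25.7%), 13.8% after storage (10.5% to 17.6%), 12.8% in BD 1 (9.64% to 16.5%) and 10.5% in BD 2 (6.96% to 14.98%). Both fresh 10x libraries were above the other 3 in the point value. The interval of fresh 10x 2 does not overlap that of BD 2. All other intervals of a fresh 10x library overlap those of stored 10x, BD 1 and BD 2. Stromal cells with both sets were ordered likewise, at 7.58% and 5.36% in fresh 10x and 3.57%, 3.07% and 2.42% in the others. By class, fibroblast-like cells had shares of 10.1% to 16.7%, endothelial-like cells 15.4% to 30.6% and mural-like cells 13.0% to 19.6%. Endothelial-like cells were 40.1% and 36.49% of stromal cells in fresh 10x and 20.4%, 11.5% and 5.24% in the others. The part of this make-up in the stromal shares was not tested. Without thinning the medians over libraries were 57.7% (epithelial), 42.4% (immune) and 60.5% (stromal), so shares at full depth did not keep the order that equal depth gave.

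**Figure D3:**
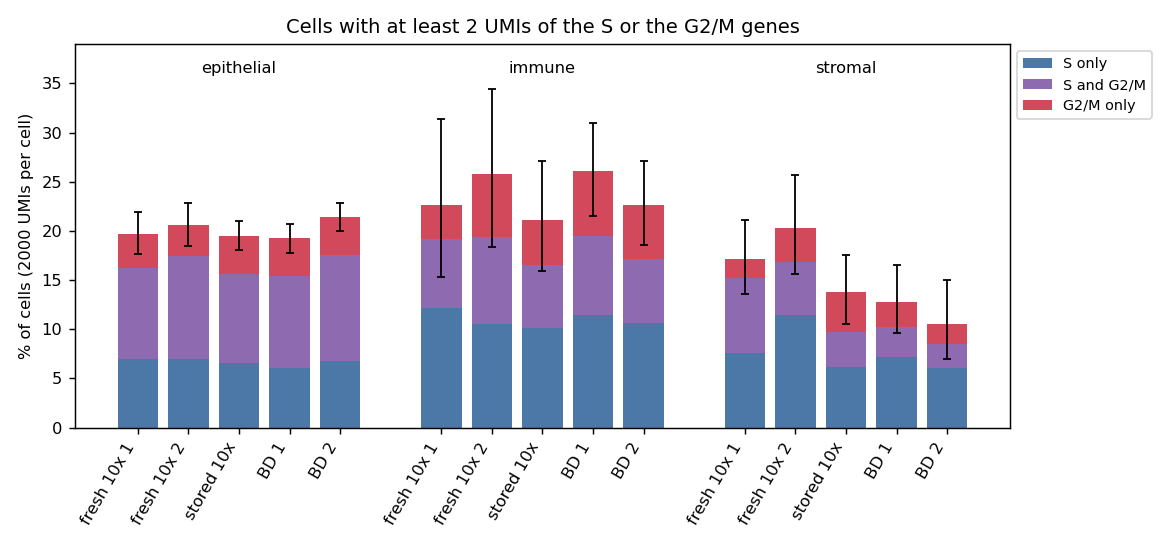
Percent of cells with at least 2 UMIs of the S genes only, of both sets or of the G2/M genes only (stacked bars, y axis) after thinning to 2000 UMIs, by compartment and library (x axis). Lines are exact binomial 95% intervals of the whole bar; epithelial bars lie between 19.2% and 21.4%, and stromal bars between 10.5% and 20.3%.

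Called cells were unevenly spread over the epithelial clusters, which were built without the listed cell-cycle genes. The cluster led by Rrm2, Ube2c and Rbp7 had 76.5% to 85.3% of its cells called and held 30.9% to 48.6% of all called epithelial cells. A cluster led by Wif1, Smr2 and Wfdc2 had 29.5% to 33.1%, the basal keratin cluster (Krt5, Krt17, Krt14) 9.68% to 17.5%, the milk gene cluster (Glycam1, Csn2) 9.58% to 15.6%, and a cluster led by Fcgbp, Spp1 and Cck 4.50% to 6.70%. Rrm2 and Ube2c lead that first cluster, and neither was among the genes used for clustering. Only genes on fixed lists and name patterns were left out, so others that vary with the cycle could remain. The cluster therefore cannot be taken as independent of the cell cycle.

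Gene by gene, the epithelium was compared with stromal cells over UMIs summed per library and compartment, with the library as a block. In such sums fewer cycling cells and less RNA per cycling cell cannot be told apart. Of the 47 genes, 42 were higher in epithelial-like cells and 1 was lower (edgeR's quasi-likelihood test, Benjamini-Hochberg adjusted p under 0.05), where 38.4% of all genes tested were called higher and 33.2% lower. The median log2 fold change of the 47 genes was 1.06, against 0.10 over all genes. All 9 licensing genes, 5 of 5 nucleotide genes, 5 of 5 fork and chromatin genes, 4 of 4 of the mitotic cyclins with Cdk1, and 7 of 7 mitotic kinase and passenger genes were higher.

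Rrm2 showed the S pattern most fully, at 61.6, 66.7, 55.5, 62.9 and 71.5 CPM in epithelial-like cells and 26.5, 25.7, 17.4, 13.5 and 12.3 in stromal cells. The groups do not overlap, and the log2 fold change was 1.87 ± 0.16 (SE, adjusted p = 3.1e-05). Other S genes with large differences were Uhrf1, which keeps DNA methylation through replication (1.64 ± 0.09, adjusted p = 2.5e-06), Cdt1, a helicase loader (1.60), Mcm5 (1.40) and Pclaf (1.37). Pcna (0.67, adjusted p = 0.0024) and Tyms (0.46, adjusted p = 0.028) differed less. Tyms overlapped, at 37.3 to 63.1 CPM in epithelial-like and 20.3 to 69.2 in stromal cells, and was lower than in stromal cells in both fresh 10x libraries.

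E2f1, the transcription factor of S-phase entry, went the other way. It stood at 8.37, 7.95, 7.90, 9.80 and 11.3 CPM in epithelial-like cells and at 16.8, 14.4, 13.0, 24.3 and 28.6 in stromal cells, with no overlap. The log2 fold change was -0.98 ± 0.16 (adjusted p = 0.00079). Ccne2, cyclin E2, was not called (-0.07).

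Among G2/M genes Pbk differed most (1.98 ± 0.21, adjusted p = 9.1e-05), at 33.5, 36.7, 35.5, 49.2 and 49.2 CPM in epithelial-like and 14.3, 14.1, 11.7, 8.52 and 6.83 in stromal cells. Ube2c stood at 149.9, 156, 129.7, 140.3 and 153 against 71.0, 61.2, 75.7, 29.0 and 10.8, a log2 fold change of 1.84 ± 0.36 (adjusted p = 0.0026). Neither gene's groups overlap, and the gap in Ube2c was widest in the BD libraries. Birc5 (1.71), Ccnb1 (1.61), Cdc20 (1.61), Mki67 (1.27), Top2a (1.06) and Cdk1 (1.03 ± 0.25, adjusted p = 0.0075) were also higher. Cenpa and Cenpf of the centromere, and Kif23, a cytokinesis motor, did not pass (0.83, 0.65 and 0.48). Levels were higher in the epithelium for 40, 44, 44, 45 and 46 of the 47 genes in the 5 libraries (order as above). The 10x libraries alone gave 36 genes higher and 1 lower, and the BD libraries alone 45 and 1.

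Immune cells were higher than stromal cells in 36 of the 47 genes and lower in none, where 26.7% of all genes tested were called higher and 31.8% lower. The median log2 fold change was 0.95, against -0.03 over all genes. Cdt1 differed most (2.11 ± 0.25), at 17.0, 20.5, 13.5, 26.9 and 28.1 CPM in immune cells and 4.54, 6.43, 5.28, 4.67 and 3.42 in stromal cells, without overlap. Mcm5 (1.38), Mcm3 (1.36), Gmnn (1.33), Mcm6 (1.21), Pcna (0.95) and Rrm2 (0.93) followed in the S set. Of the G2/M set, Mki67 (1.62 ± 0.26, adjusted p = 0.00061), the checkpoint kinases Bub1 (1.56) and Bub1b (1.495), the spindle motor Kif11 (1.44), Nusap1 (1.43), Top2a (1.36) and Ccnb1 (1.20) were higher. Cdk1 (0.40, adjusted p = 0.24) and Tyms (-0.04, adjusted p = 0.85) did not pass. Levels were higher in immune cells for 45, 45, 45 and 44 of the 47 genes in fresh 10x 2, stored 10x, BD 1 and BD 2, and for 27 in fresh 10x 1. The 10x libraries alone gave 28 genes higher, the BD libraries alone 39, and neither gave a lower one.

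**Figure D4:**
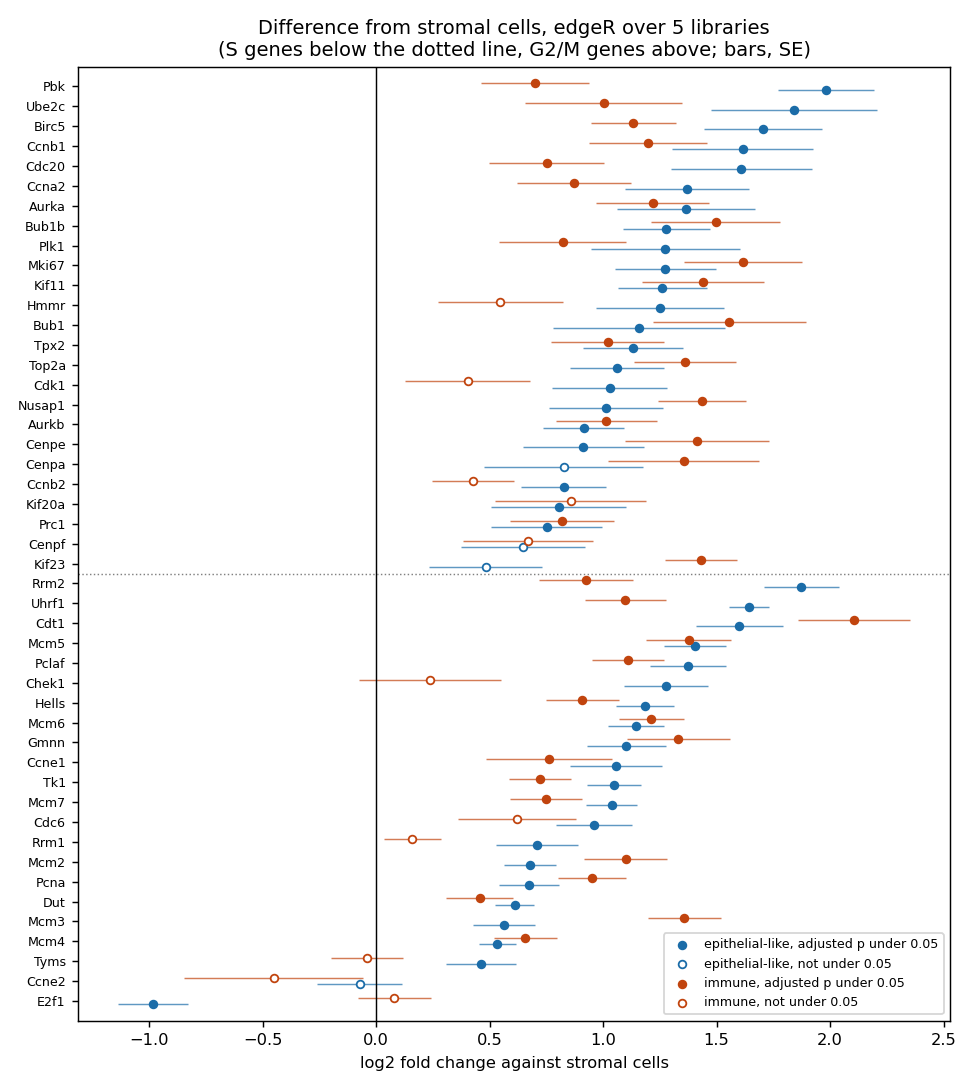
Log2 fold change of epithelial-like (blue) and immune cells (orange) against stromal cells (x axis) for each gene (y axis), from edgeR over 5 libraries; bars are SE and filled points passed an adjusted p of 0.05. Nearly all points lie right of 0, and E2f1 lies at -0.98 in the epithelial-like comparison.

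Between epithelial-like and immune cells the genes went both ways. S genes were called higher in the epithelium for 4 and lower for 5, and G2/M genes for 7 and 6, where 34.7% of all genes tested were higher and 28.1% lower. The median over the 47 genes was 0.05, against 0.12 over all. Mcm3 was the clearest helicase gene: 18.6, 19.6, 19.6, 24.5 and 24.7 CPM in epithelial-like cells and 38.3, 36.4, 41.1, 43.7 and 38.5 in immune cells, a log2 fold change of -0.88 ± 0.12 (adjusted p = 1.5e-05) with no overlap. E2f1 (-1.24 ± 0.16, adjusted p = 6.6e-06), Cdt1 (-0.60), Mcm2 (-0.53) and Pcna (-0.37) were lower as well. Chek1, the replication checkpoint kinase (1.01 ± 0.25), Rrm2 (0.87 ± 0.12, adjusted p = 2.1e-05), Rrm1 (0.50) and Uhrf1 (0.42) were higher.

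The G2/M set went both ways as well. Pbk (1.27 ± 0.18, adjusted p = 2.1e-05), Cdc20 (0.84), Ube2c (0.79), Hmmr, a spindle assembly factor (0.68), and Cdk1 (0.57) were higher in the epithelium. Kif23 (-0.96 ± 0.17, adjusted p = 0.0002), Cenpe (-0.58), Cenpa (-0.56), Nusap1 (-0.45), Mki67 (-0.43) and Top2a (-0.39) were lower. Kif23 stood at 8.29, 12.6, 9.63, 16.8 and 18.1 CPM in epithelial-like and 28.4, 22.4, 24.2, 31.0 and 24.1 in immune cells, with no overlap. Ccnb1 (0.40, adjusted p = 0.054), Tyms (0.41, adjusted p = 0.068) and Mcm5 (-0.07, adjusted p = 0.66) did not pass. The split rested in part on BD 2: without it 5 genes were higher and 15 lower. The 10x libraries alone gave 5 higher and 11 lower, and the BD libraries alone 15 and 10.

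The other S and G2/M genes of a wider list went with the 47 in the stromal contrasts. In epithelial-like against stromal cells 24 of 30 other S genes were higher and 2 lower, and 26 of 34 other G2/M genes were higher, including Fen1, the flap endonuclease (1.91), and Cdc25c, the phosphatase that activates Cdk1 (1.96). Of 16 G1 cyclins, kinases and inhibitors, 4 were higher and 8 lower, with Rb1, the retinoblastoma gene, at 2.25, Ccnd2 (cyclin D2) at -7.05 and Cdkn2b, the p15 inhibitor, at -3.18. Of all genes tested in this contrast, 38.4% were called higher and 33.2% lower. In epithelial-like against immune cells Ccnd2 was at -6.77. In immune against stromal cells 17 of 30 other S genes and 22 of 34 other G2/M genes were higher, and 1 other G2/M gene was lower. There 26.7% of all genes tested were called higher and 31.8% lower.

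BD 1 was then compared with the 2 fresh 10x libraries. BD 1 is 1 library, so platform, library and tumour cannot be told apart, and it is assumed to vary like the fresh pair. Over whole libraries 3 genes were higher and 6 lower, where 21.1% of all genes tested were called higher and 20.3% lower. Dut (-1.42), Tyms (-1.03), Gmnn (-0.84), Cenpf (-0.95), Cdc20 (-0.72) and Aurkb (-0.52) were lower, and Mcm4 (0.56), Top2a (0.69) and Kif20a (0.92) higher. Mki67, Cdk1, Ccnb1, Pcna, Mcm5 and Rrm2 lay between -0.25 (Rrm2) and 0.41 (Mcm5) and did not pass. In epithelial-like cells 9 were higher and 6 lower, where 22.2% of all genes were higher and 21.6% lower, with a median of 0.07 against 0.02 over all. With scaling by UMI totals alone the epithelial split was 12 higher and 5 lower, and with classes from a marker gate it was 3 and 11. DESeq2 called 3 higher and 5 lower, all 8 among these 15. The mitochondrial share was 15.2% in BD 1 and 6.14% and 6.99% in the fresh libraries, and its part in these differences was not tested. With cells of under 500 UMIs and cells above 20% mitochondrial UMIs both left out, 14 genes were higher and 5 lower.

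The lower S genes in the BD 1 epithelium were Dut, Tyms and Gmnn. Dut stood at 100.01 and 93.4 CPM in fresh 10x, 42.7 in BD 1, 45.1 in BD 2 and 73.6 in stored 10x, and BD 1 was lower by a log2 of -1.32 ± 0.12 (adjusted p = 0.00048). Tyms stood at 63.1 and 59.1 in fresh 10x and 37.3 in BD 1 (-0.86 ± 0.12, adjusted p = 0.0019), and Gmnn at 30.2 and 35.4 against 21.46 (-0.75 ± 0.13, adjusted p = 0.0051). Each BD value lay below both fresh values. Mcm4 (0.61), Mcm5 (0.46), Tk1 (0.46), Cdt1 (0.45) and Pcna (0.38, adjusted p = 0.028) were higher, with Mcm4 at 18.5 and 21.1 CPM in fresh 10x and 33.3 in BD 1. Rrm2 did not pass (-0.17).

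G2/M genes of the BD 1 epithelium also moved in both directions. Top2a stood at 59.7 and 61.3 CPM in fresh 10x, 63.3 after storage, 109.7 in BD 1 and 99.97 in BD 2 (BD 1 against fresh 0.72 ± 0.10, adjusted p = 0.0022). Kif20a, a cytokinesis motor (0.94), Ccna2, cyclin A2 (0.67), and Pbk (0.34) were higher too. Cenpf, a kinetochore protein (-0.98 ± 0.17, adjusted p = 0.005), Cdc20 (-0.66) and Kif11 (-0.42) were lower. Cdk1 (-0.08), Mki67 (-0.22) and Ccnb1 (-0.18) did not pass.

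In immune cells 45 of the 47 genes could be tested and 3 were lower and none higher in BD 1, where 11.8% of all genes tested were lower and 10.4% higher. They were Dut (-2.46 ± 0.33, adjusted p = 1.5e-05), Tyms (-2.15 ± 0.40, adjusted p = 0.00047) and Pclaf (-1.26 ± 0.36, adjusted p = 0.014). Dut stood at 147.7 and 127.7 CPM in the fresh immune cells, 70.0 after storage, 29.998 in BD 1 and 28.1 in BD 2, so the fresh pair was above all others. Pclaf stood at 89.5 and 178 CPM in the fresh pair and at 67.9 in BD 1, so the fresh values differed by more than the lower of them did from BD 1. The make-up of the immune cells also differed, within the fresh pair as well: T/NK-like cells were 33.8% and 15.9% of the fresh immune cells against 15.8% for BD 1, and 1 of the unnamed clusters was 2.65% and 26.5% against 24.6%. Its part in these differences was not tested. No G2/M gene passed in immune cells by edgeR (2 of 25 had an unadjusted p under 0.05). Top2a was at 0.66 (adjusted p = 0.16) and Mki67 at 0.40. Cdk1 (-0.17), Ccnb1 (-0.02), Pcna (0.09), Mcm5 (0.38) and Rrm2 (-0.40) did not pass either. DESeq2 called 2 genes in these cells, Dut and Tyms, both lower.

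Stromal cells differed more. In BD 1 19 genes were lower and 1 was higher, where 25.7% of all genes tested were lower and 26.7% higher, and the median log2 fold change was -0.57 against 0.00 over all genes. Cdk1 stood at 70.8 and 52.1 CPM in fresh 10x, 36.1 after storage, 24.6 in BD 1 and 19.2 in BD 2, and BD 1 was lower by a log2 of -1.29 ± 0.19 (adjusted p = 1.3e-06). Aurka, the spindle-pole kinase (-1.56), Cenpf (-1.35), Cdc20 (-1.32), Aurkb, the passenger kinase (-1.27), Ube2c (-1.16) and Mki67 (-0.56) were also lower. In the S set Gmnn (-1.82 ± 0.27), Tyms (-1.68 ± 0.18, adjusted p = 4.5e-09), Dut (-1.57), Pclaf (-1.09), Rrm2 (-0.92) and Rrm1 (-0.68) were lower and E2f1 was higher (0.67 ± 0.22, adjusted p = 0.013). Top2a (0.33), Ccnb1 (-0.63, adjusted p = 0.069), Mcm5 (-0.35) and Pcna (-0.21) did not pass.

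The make-up of the stromal cells moved with these differences. Fibroblast-like cells were 44.7% and 42.1% of stromal cells in fresh 10x, 73.2% after storage, 85.4% in BD 1 and 91.9% in BD 2, and endothelial-like cells 40.1%, 36.49%, 20.4%, 11.5% and 5.24%. With fibroblast-like cells alone, 2 genes were higher and 11 lower in BD 1, and 12 of these 13 were among the 20 above. Within fibroblast-like cells 1 cluster also went from 7.94% and 14.4% of stromal cells in fresh 10x to 60.4% in BD 1. With DESeq2 7 genes were lower and none higher.

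**Figure D5:**
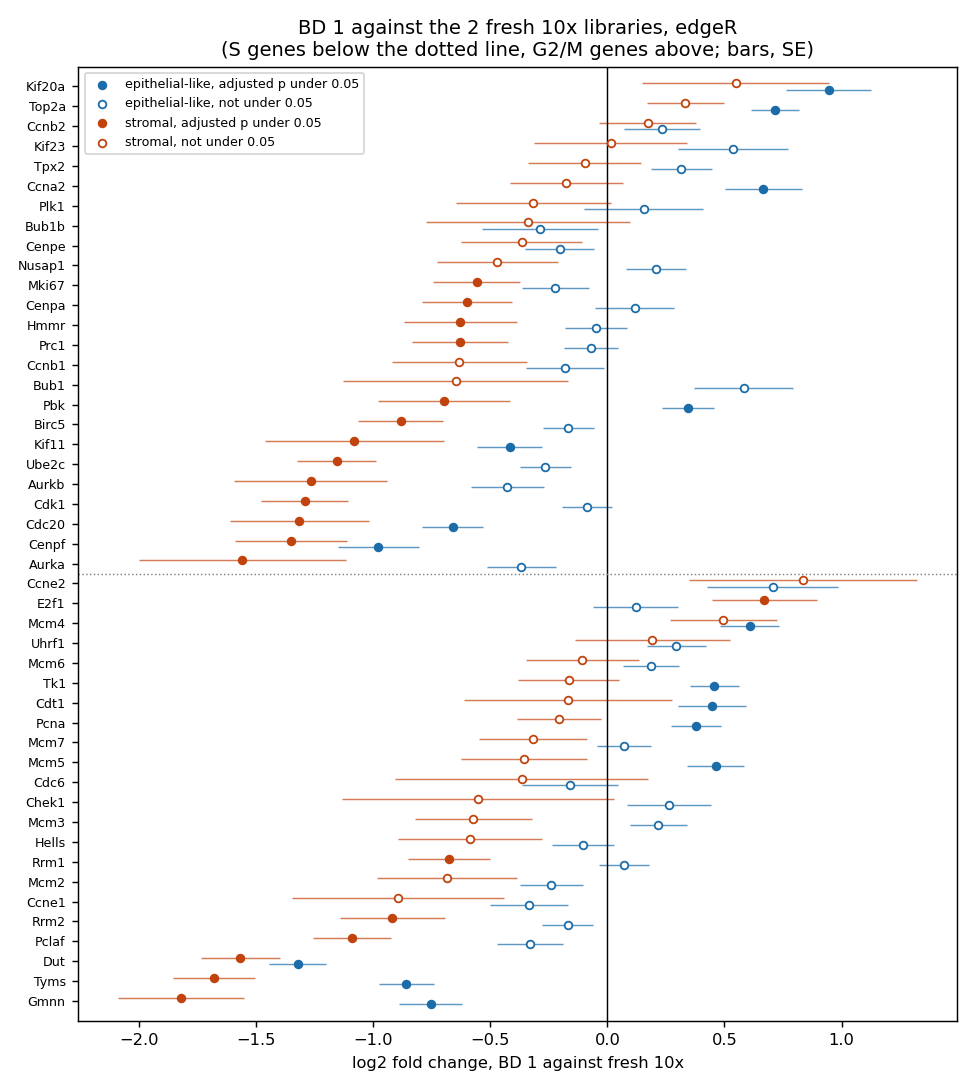
Log2 fold change of BD 1 against the 2 fresh 10x libraries (x axis) for each gene (y axis) in epithelial-like (blue) and stromal cells (orange), by edgeR; bars are SE and filled points passed an adjusted p of 0.05. Dut, Tyms and Gmnn lie left of 0 in both, while Cdk1 lies at -0.08 in the epithelium and -1.29 in stromal cells.

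Whether the BD 1 difference was unequal between compartments was tested as an interaction. In 7 genes it was lower in stromal than in epithelial-like cells and in none higher, where 4.12% of all genes tested were called lower and 9.26% higher. The difference of log2 fold changes was -1.03 ± 0.20 for Cdk1 (adjusted p = 0.00041), -0.91 for Gmnn, -0.88 for Pbk, -0.72 ± 0.18 for Ube2c (adjusted p = 0.0063), -0.65 for Tyms, -0.60 for Pclaf and -0.58 for Rrm1. The median over the 47 genes was -0.42, against 0.18 over all genes. With relative log expression factors, which shifted the median of all genes by -0.21, 15 genes were lower and none higher, the 7 among them. With fibroblast-like cells alone 6 genes were called, 5 of them among these 7, while Gmnn (adjusted p = 0.12) and Pclaf (adjusted p = 0.089) were lost and Rrm2 was gained (-1.02). Mki67 (-0.18), Top2a (-0.21), Ccnb1 (-0.31), Pcna (-0.42), Mcm5 (-0.66) and Rrm2 (-0.59) did not pass in the test on all stromal cells. Between epithelial-like and immune cells the interaction called 0 of 47 genes in edgeR (7 with an unadjusted p under 0.05), where 1.08% of all genes were called, with Tyms at -1.21 (adjusted p = 0.052). DESeq2 was not run for interactions.

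In the wider lists of the BD 1 epithelium 14 of 30 other S genes were lower and 2 higher, while 15 of 34 other G2/M genes were higher and 6 lower (all genes 21.6% lower and 22.2% higher). Clspn, a checkpoint adaptor (-1.55), Cenpu (-1.40) and Slbp, the histone mRNA-binding protein (-1.34), led the S genes, and Jpt1 (-1.77) and Gtse1 (1.63) the G2/M genes. In stromal cells 14 of 30 other S genes were lower and 1 higher, and 6 of 33 other G2/M genes tested were lower and 2 higher (all genes 25.7% lower and 26.7% higher), with medians of -0.85 and -0.19. Cdkn1b, the p27 inhibitor, was higher in the epithelium (1.42), immune cells (1.53) and stroma (1.74).

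Stored 10x shares its fresh controls with the BD 1 comparison and is also 1 library, so storage and library cannot be told apart. Over whole libraries edgeR called 0 of 47 genes (7 with an unadjusted p under 0.05), where 0.228% of all genes tested were called. In epithelial-like cells it called 0 (10 with an unadjusted p under 0.05), where 3.09% of all genes were called, and in immune cells 0 of 45 (4 with an unadjusted p under 0.05), where 0.665% were. DESeq2 called 0 in each of the 3. Cdk1 stood at 73.9 and 72.6 CPM in the fresh epithelium and at 54.6 in stored 10x (-0.41, adjusted p = 0.1). Mki67, Top2a, Ccnb1, Pcna, Mcm5, Rrm2 and Tyms had epithelial log2 fold changes of -0.26 (Pcna) to 0.15 (Mcm5). In immune cells Tyms was at -0.99 (adjusted p = 0.52).

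In stromal cells of stored 10x 5 genes were lower and none higher, where 8.27% of all genes tested were called lower and 8.74% higher. They were Gmnn (-0.86 ± 0.25, adjusted p = 0.017), Cdk1 (-0.69 ± 0.19, adjusted p = 0.012), Tyms (-0.63), Pclaf (-0.63) and Dut (-0.59). Tyms stood at 69.2 and 64.6 CPM in fresh 10x and 40.7 in stored 10x, and Dut at 85.7 and 75.3 against 50.4, each below both fresh values. Ccnb1 (0.71, adjusted p = 0.051) and Pcna (-0.58, adjusted p = 0.051) did not pass, and neither did Mki67, Top2a, Rrm2 or Mcm5. DESeq2 called 0 of these genes, a fit with all 5 libraries 2, and fibroblast-like cells alone 0. The interaction between epithelial-like and stromal cells called 0 of 47 genes in edgeR (5 with an unadjusted p under 0.05), where 5.89% of all genes were called, and that with immune cells 0 (2 with an unadjusted p under 0.05), where 0.408% were.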

How the data were processed

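The deposited matrices hold raw UMI counts per gene and cell. The submitters' processing notes name Cell Ranger 3.0.1 and mm10, without saying for which libraries, and how the BD counts were made is not given in the sources used here. Genes and lists were chosen with earlier results of these data known.

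Cells with at least 200 genes were clustered on 30 principal components of 2000 variable genes. Cell-cycle genes on fixed lists and name patterns were left out of these. Neighbours (15 per cell) came from scikit-learn 1.9.0 and Leiden clusters (resolution 1.0, 25 clusters) from igraph 0.11.9. Clusters were named from marker lists. Doublets were called with scanpy 1.11.5 and kept. Counts were summed per library and compartment and tested with edgeR 4.0.16 (quasi-likelihood test, TMM, filterByExpr, Benjamini-Hochberg over all genes tested, threshold 0.05); SE is the log2 fold change over the square root of F. Alternatives included DESeq2 1.42.0, other scalings, classes and cell filters. Scripts were tested on simulated data. For shares, cells were thinned to 2000 UMIs and shallower cells left out. Libraries held 29166129 to 59957945 UMIs. Named with statistics were called genes among the 5 largest changes per set and direction, plus Mki67, Top2a, Cdk1, Ccnb1, Pcna, Mcm5, Rrm2 and Tyms, and up to 3 genes per other list. Cell type comparisons carried the library as a block, since both compartments come from 1 digest. Promoters are RefSeq's (GRCm38.p6).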

Additional observations from a re-analysis of the deposited data

Results flagged for a closer look

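For 7 genes the difference between BD 1 and the fresh 10x libraries was unequal in epithelial-like and stromal cells by edgeR's test of the interaction. The stromal minus epithelial difference of log2 fold changes was -1.03 for Cdk1, -0.91 for Gmnn, -0.88 for Pbk, -0.72 for Ube2c, -0.65 for Tyms, -0.60 for Pclaf and -0.58 for Rrm1. With relative log expression factors 15 genes were called, these 7 included. Fibroblast-like cells made up 44.7% and 42.1% of stromal cells in fresh 10x and 85.4% in BD 1. With fibroblast-like cells alone Cdk1 (-1.18), Ube2c (-1.06), Pbk (-1.14), Rrm1 (-1.14) and Tyms (-0.81) were called, and Gmnn (-0.95) and Pclaf (-0.57) were not.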

How the results depend on the processing

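Of 2123 single-gene values under other settings, 100 lost the call, 34 gained one and none reversed among genes called in either fit. The other 1989 include genes called in neither fit, whatever their direction. They also include fits without a fresh 10x library, which give no call. The causes were not tested. Counts of called genes moved as follows. Here and above, counts under other settings are given without the share of all genes called in the same fit. They therefore do not set these genes apart from the rest. With BD 2 grouped with BD 1 by title, 22 genes were called in whole libraries, 26 in epithelial-like and 6 in immune cells, against 9, 15 and 3. With the replicate number of the titles as a block as well, 23, 27 and 3 were called, and 26 in stromal cells against 20. These numbers only share a label: deviations of same-numbered libraries correlated at 0.26 in whole libraries, 0.05 in epithelial-like, -0.22 in immune and 0.06 in stromal cells. Without the library block 11 genes were called in epithelial-like against immune cells (22 with it), 37 against stromal cells (43) and 26 in immune against stromal cells (36). DESeq2 called 8 genes in the BD 1 epithelium, 7 in its stroma and 0 in stored stroma. UMI totals alone gave 7 in BD 1 immune cells, and shifted the median of all genes by 0.14 (whole), 0.14 (epithelial) and 0.27 (immune). No filter on low counts gave 2 in the stored epithelium and 1 in the BD 1 immune interaction. Relative log expression factors gave 2 there and 15 in the BD 1 stromal interaction, where they shifted the median of all genes by -0.21. Fibroblast-like cells as the stroma gave 13 in BD 1, 0 in stored 10x and 1 in the stored interaction, and 1 fit of all 5 libraries gave 2 in stored stroma. Leave-one-out counts ran from 20 to 23 (epithelial-like against immune), 36 to 46 (against stromal) and 30 to 38 (immune against stromal), lowest without BD 1 in the last 2. Leaving out a fresh 10x library leaves 1 against 1 with no residual degrees of freedom, so no counts; all called genes kept their direction against each fresh library. Median shares (epithelial, immune, stromal; 19.7%, 22.6% and 13.8% as reported) were 13.9%, 14.6% and 7.28% at 1000 UMIs, 31.0%, 44.3% and 24.4% at 4000, 57.7%, 42.4% and 60.5% unthinned, 44.0%, 55.3% and 39.9% at 1 UMI, and 14.1%, 13.8% and 8.16% at 3 UMIs. The epithelial share was 21.1% in cells of at most 20% mitochondrial UMIs. Averaging cells gave sums of 4.71 (S) and 5.95 (G2/M) with a log2 ratio of 0.30 in the epithelium, and 5.45 and 5.44 in immune cells. Without the 3 most abundant genes of each set the epithelial sums were 4.51 and 7.04 and the immune S sum 5.24. Few cells carry the values of the small classes: 2 to 12 neutrophil-like, 7 to 67 mural-like, 13 to 177 endothelial-like and 24 to 81 T/NK-like cells a library.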
